A study of Homo sapiens with 12 samples.

Results

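HSC-1 is an established human line of cutaneous squamous cell carcinoma, a cancer of skin keratinocytes, and the comparison described here is that of HSC-1 cells given 100 nM everolimus with HSC-1 cells given the vehicle DMSO, both for 72 h. It rests on 6 of the 12 arrays of the series, chosen by their labels: 3 arrays with everolimus and 3 with DMSO. The other 6 arrays hold A431, another line that the labels give as skin squamous cell carcinoma, under the same agents, doses and time, and they enter the choice of probe sets and of tested genes, the shared estimate of spread and the test of the difference between the lines. Of the genes tested, 137 lay below the array median on all 6 HSC-1 arrays. The medium held 10 or 20% serum, and the labels tie neither level to a line. They name no clone or passage. Whether the 3 arrays of each group stem from independent cultures is not stated; the p-values therefore refer to spread among these arrays alone, which may be technical. The title of the series concerns genes tied to everolimus resistance, and the labels do not say whether HSC-1 resists the drug.

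Everolimus is an analogue of rapamycin. It binds FKBP12, and the pair inhibits mTOR complex 1, the kinase complex that couples growth factors and amino acids to translation, ribosome production and anabolic metabolism and that restrains autophagy. The complex also feeds back on the insulin receptor substrates, and FOXO transcription factors, which AKT holds outside the nucleus, switch on starvation and quiescence genes. In squamous cells the growth signal comes largely through ERBB receptors, and alarmins, kallikreins and cornified envelope proteins mark keratinocyte activation and differentiation.

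Values are log2 RMA levels, and each gene is read by 1 probe set. A positive difference means a higher level with everolimus, and "rose" and "fell" are kept for genes with an adjusted p under 0.05 in limma, adjusted over all 10613 genes tested. Of these, 1977 changed (18.6%), 779 rising (7.34%) and 1198 falling (11.3%). Most changes were small: the median absolute difference among the 1977 was 0.30 on the log2 scale, 139 passed 1.5-fold, and 8 rises and 18 falls passed 2-fold. For 3534 genes (33.3%) there was no overlap between the everolimus and the DMSO values. Of the 1977 changed genes 1918 were among them, so a lack of overlap adds little to a call. Arrays of the same treatment correlated at 0.989 to 0.992 and arrays of different treatments at 0.987 to 0.990, and the first principal component of the 6 arrays, with 46.4% of the variance, separated the treatments. The basal keratin KRT5 lay between 9.42 and 9.62 on the 6 arrays, against array medians of at most 4.39 over all probe sets. Of 14 keratinocyte markers 9 were tested (2 rose and 2 fell). Of the markers of other cells 2 fibroblast, 2 melanocyte, 3 leukocyte and 0 endothelial genes were tested, and 1 leukocyte marker fell.

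The 15 largest falls included 3 S100 genes, a sialic acid enzyme, lysosomal and surface proteins, proteases and 3 noncoding SNAR genes. S100A8 (probe set 16693414), a subunit of the alarmin calprotectin, had levels of 8.74, 8.67 and 8.69 with DMSO and 6.81, 6.62 and 6.76 with everolimus. Its groups were far apart, and the log2 difference of -1.97 ± 0.08 (SE) was the largest among all genes tested (limma adjusted p = 1.55e-11). Its partner S100A9 had 8.40, 8.32 and 8.36 with DMSO against 6.65, 6.79 and 6.81 with everolimus, and fell 3.06-fold. The antimicrobial S100A7 (psoriasin) fell by 1.37 ± 0.14. In A431 these 3 transcripts had differences of -0.89, -0.71 and -1.29. The HSC-1 fall was larger for S100A8 (difference of effects -1.08, limma adjusted p = 7.96e-06) and S100A9, and was not called different for S100A7 (-0.08, limma adjusted p = 0.86). Of 14 S100 genes tested 7 fell and 0 rose, with a median of -0.13, against 11.3% falling and 7.34% rising over all genes tested. The falls were 4 without HSC-1 DMSO replicate 2 or without HSC-1 everolimus replicate 2.

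GNE, the enzyme that begins sialic acid synthesis, stood at 6.68, 6.67 and 6.68 with DMSO and at 5.29, 5.11 and 4.99 with everolimus. The DMSO arrays were nearly equal and lay above every everolimus array, a 2.93-fold fall. LAPTM5, a lysosomal transmembrane protein best known from blood cells, went from 8.57, 8.52 and 8.54 to 7.01, 7.09 and 7.05 (-1.49 ± 0.10, limma adjusted p = 8.25e-09). In A431 LAPTM5 rose by 0.47, and the difference of the effects, -1.97, was the widest of any gene that passed that test. STC1, a secreted glycoprotein hormone, fell by 1.49 ± 0.13. The surface protein CLCA2 fell 2.61-fold, from 8.67, 8.64 and 8.65 to 7.35, 7.30 and 7.15. The raft protein STOM fell by 1.29, with 1 everolimus array below its array median. The lysosomal protease CTSS fell by 1.06, and the kallikrein KLK9 fell by 1.14.

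The largest rises among protein-coding genes were in F2RL2 and MXRA5. F2RL2 (probe set 16997383), the thrombin receptor PAR3, had 5.86, 5.90 and 6.01 with DMSO and 7.38, 7.32 and 7.29 with everolimus, a difference of 1.40 ± 0.20 (limma adjusted p = 5.85e-05). MXRA5, a secreted matrix protein, went from 5.85, 5.88 and 6.02 to 7.24, 7.15 and 7.07, and rose 2.35-fold. For both genes every everolimus array lay above every DMSO array by more than 1 on the log2 scale. TCP11L2 rose by 0.84 ± 0.07 and CCDC146 by 0.83 ± 0.10. In A431 the differences of F2RL2 and MXRA5 were 0.06 and 0.16, and the effects of the lines differed by 1.34 (limma adjusted p = 0.00382) and 1.08 (limma adjusted p = 4.65e-07).

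**Figure D1:**
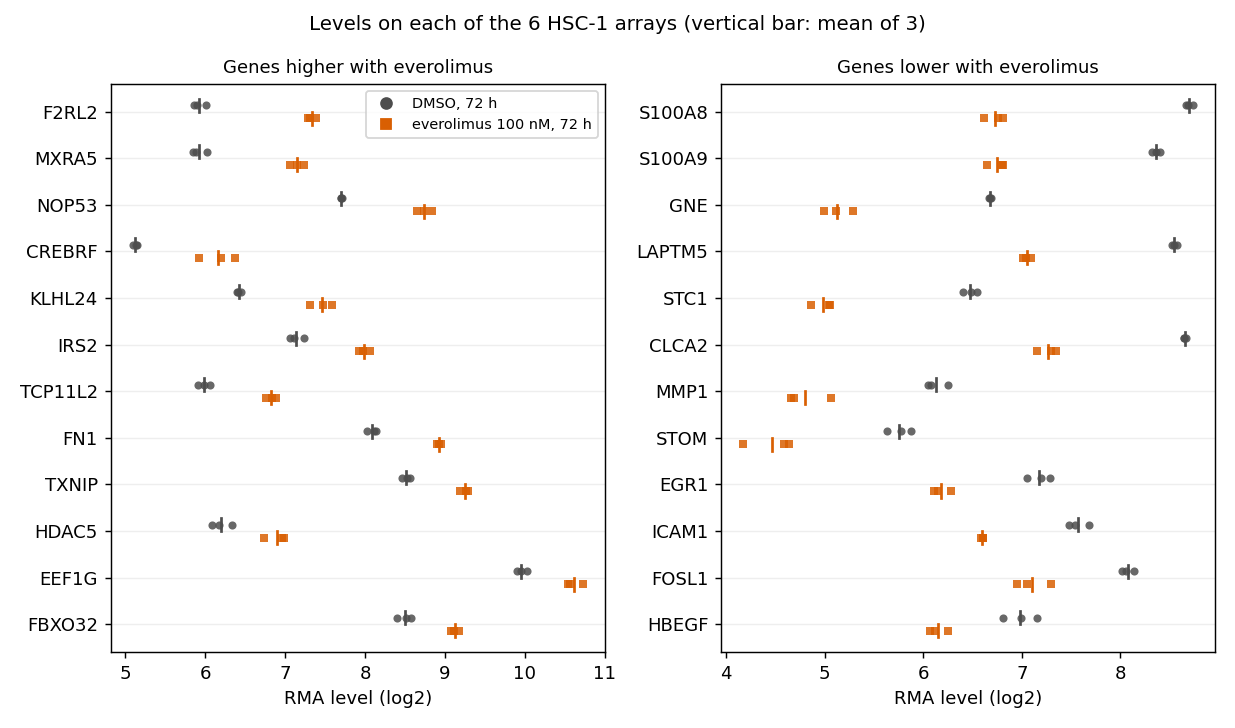
Log2 RMA level of 12 genes that were higher and 12 that were lower with everolimus on each of the 6 HSC-1 arrays, with DMSO arrays as grey circles, everolimus arrays as orange squares and group means as vertical bars. The groups do not overlap in any gene shown, which was a condition for choosing some of them. S100A8 went from a mean of 8.70 to 6.73 and F2RL2 from 5.93 to 7.33.

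Some genes of the mTOR complexes and their regulators changed, while the kinase itself was not called. MTOR had 7.80, 7.82 and 7.73 with DMSO and 7.94, 7.89 and 7.86 with everolimus, and its difference of 0.11 ± 0.05 did not pass (limma adjusted p = 0.118). Of 22 tested genes of the mTOR complexes and their upstream regulators 3 rose, 4 fell and 15 were not called, so 7 of 22 changed against 18.6% of all genes tested; the median was 0.07 against -0.02 over all genes. FNIP1, a folliculin partner in amino acid sensing, rose by 0.41 ± 0.07, the Rag GTPase RRAGB by 0.36 ± 0.09 and TSC2, a brake on the complex, by 0.28 ± 0.06. AKT1S1, which encodes the inhibitory subunit PRAS40, fell by 0.41 ± 0.07, and the stress-induced inhibitor DDIT4 fell by 0.38 ± 0.04. Without the intensity trend in the variance, 2 and not 4 of the list fell.

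Among 18 substrates and effectors of the complex 4 rose and 3 fell, against 7.34% and 11.3% of all genes tested. EIF4EBP1, the translation repressor 4E-BP1, had 7.89, 8.05 and 7.86 with DMSO and 7.56, 7.43 and 7.71 with everolimus, and fell by 0.37 ± 0.07 (limma adjusted p = 0.00115). The helicase inhibitor PDCD4, which S6 kinase marks for destruction, went the other way, from 8.45, 8.53 and 8.49 to 8.94, 8.80 and 8.80 (0.36 ± 0.05). Neither gene had overlapping groups. In A431 the differences were 0.11 for EIF4EBP1 and -0.02 for PDCD4, and both genes' effects differed between the lines (limma adjusted p = 0.00462 and 0.00301).

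Receptors and adaptors of growth factor signalling moved in both directions. Among the insulin receptor substrates IRS2 rose, while the fall of IRS1 was less stable. IRS2, the insulin receptor substrate that couples the insulin and IGF receptors to PI3K, had 7.11, 7.06 and 7.24 with DMSO and 8.07, 7.97 and 7.92 with everolimus, a 1.81-fold rise (0.85 ± 0.09, limma adjusted p = 4.36e-06). IRS1, its paralogue, had 5.03, 4.92 and 5.27 against 4.75, 4.39 and 4.82, and fell by 0.42 ± 0.12 (limma adjusted p = 0.0239). That call was lost in the fits of the 6 HSC-1 arrays alone, without HSC-1 DMSO replicate 1, without HSC-1 DMSO replicate 3 and without HSC-1 everolimus replicate 2 (limma adjusted p from 0.00517 to 0.139 over all alternatives). With everolimus IRS1 lay little above the array medians of 4.35 to 4.39, so the size of its difference depends on the background. The IGF1 receptor IGF1R rose by 0.41 ± 0.05, the keratinocyte growth factor receptor FGFR2 by 0.55 ± 0.08 and the hepatocyte growth factor receptor MET by 0.30 ± 0.04, while the ephrin receptor EPHA2 fell by 0.29 ± 0.06. ERBB3, the neuregulin receptor, rose by 0.25 ± 0.08 (limma adjusted p = 0.0305), a call lost in 7 of 23 alternatives (limma adjusted p up to 0.0994). EGFR lay between 12.49 and 12.56 on all 6 arrays, with a difference of 0.01 ± 0.03 (limma adjusted p = 0.835). INSR had 4.64, 5.14 and 4.99 against 5.19, 5.22 and 5.23, and did not pass (limma adjusted p = 0.177). Of 18 tested receptors and adaptors 6 rose, 5 fell and 7 did not pass, against 7.34% rising and 11.3% falling over all genes. The count of falls was 1 without HSC-1 DMSO replicate 1, 2 without HSC-1 DMSO replicate 2, 3 without HSC-1 DMSO replicate 3, 2 without HSC-1 everolimus replicate 2 and 2 without HSC-1 everolimus replicate 3.

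Among 18 ligands and IGF binding proteins tested, 2 rose, 3 fell and 13 did not pass, against 7.34% rising and 11.3% falling over all genes. The ERBB ligands HBEGF and NRG1 were among the falls. HBEGF, a ligand of EGFR, had 6.99, 6.81 and 7.15 with DMSO and 6.25, 6.12 and 6.07 with everolimus (-0.84 ± 0.09, limma adjusted p = 5.16e-06). NRG1, a ligand of ERBB3, fell by 0.49 ± 0.07, and FGFBP1, a carrier of fibroblast growth factors, by 0.47 ± 0.07. PDGFA, a platelet-derived growth factor chain, rose by 0.43 ± 0.06. In A431 HBEGF and NRG1 had differences of 0.08 and 0.10, and both effects differed between the lines (limma adjusted p = 0.000177 and 0.000704).

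A few genes listed as ERK output fell, while most of those tested did not pass. EGR1 (probe set 16989736), a zinc finger factor induced within minutes of growth factor signalling, had 7.05, 7.20 and 7.29 with DMSO and 6.29, 6.15 and 6.11 with everolimus. It fell by 1.00 ± 0.07 (limma adjusted p = 1.32e-08), but its other, dimmer probe set had a difference of only -0.35. FOSL1, the AP-1 subunit FRA1, went from 8.14, 8.06 and 8.02 to 6.95, 7.30 and 7.05 (-0.97 ± 0.08). IER3 fell by 0.74 ± 0.05, and its probe sets ranged from -0.47 to -0.75. Every DMSO array lay above every everolimus array for these 3 genes. CCND1, the G1 cyclin that ERK signalling supports, rose by 0.23 ± 0.04, and MYC did not pass (0.13 ± 0.05, limma adjusted p = 0.0725). Of the 21 ERK output genes tested 1 rose, 5 fell and the other 15 did not pass (median -0.12). The shares over all genes tested were 7.34% rising and 11.3% falling. The falls were 3 without HSC-1 DMSO replicate 1, without HSC-1 DMSO replicate 3 or without HSC-1 everolimus replicate 2.

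FOXO-linked and quiescence genes were mostly higher. Of 24 tested 14 rose and 2 fell, with 8 not called and a median of 0.28. The shares over all genes tested were 7.34% rising and 11.3% falling. KLHL24, a substrate adaptor that sets keratin turnover, had 6.45, 6.40 and 6.41 with DMSO and 7.58, 7.48 and 7.31 with everolimus (1.04 ± 0.08, limma adjusted p = 2.67e-08). CREBRF, a starvation-induced regulator of the CREB3 factors, went from 5.14, 5.14 and 5.10 to 6.37, 6.20 and 5.93. The DMSO arrays of these 2 genes spanned less than 0.1 on the log2 scale, and the everolimus arrays lay well above them. TXNIP, which restrains glucose uptake, rose by 0.73 ± 0.07, the ubiquitin ligase FBXO32 (atrogin-1) by 0.63 ± 0.07, TP53INP1 by 0.55 ± 0.10 and the cyclin CCNG2 by 0.46 ± 0.09. In A431 the same list had 1 rise and 7 falls among the 24, with a median of -0.12, and 12 of the 24 effects differed between the lines in limma, against 10.5% of all genes tested. TP53INP1 stood at -0.50 there, a difference of 1.05 (limma adjusted p = 8.3e-05).

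**Figure D2:**
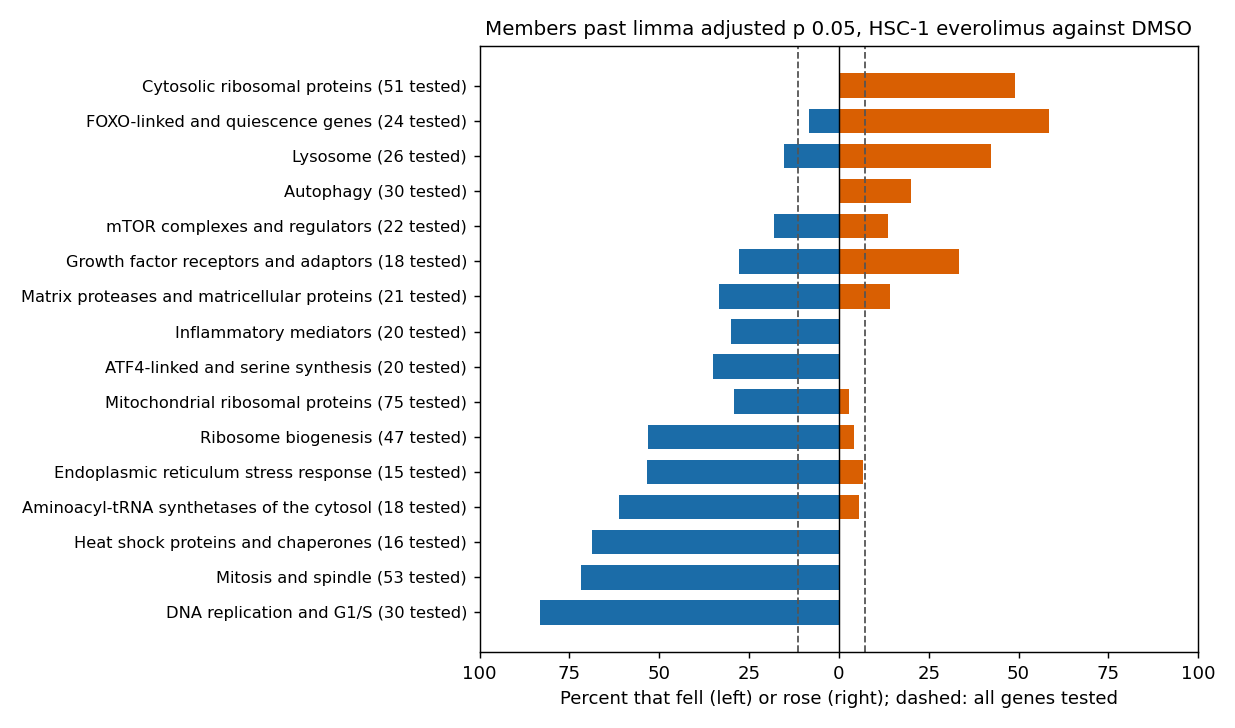
Percent of the tested members of 16 gene lists that rose (right, orange) or fell (left, blue) with everolimus in HSC-1 at a limma adjusted p of 0.05, with dashed lines at the shares over all genes tested (7.34% and 11.3%). The bars run from 25 of 51 cytosolic ribosomal proteins rising and 0 falling to 25 of 30 DNA replication genes falling and 0 rising.

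Transcripts of the cell division machinery were lower as a block, while over all genes tested 11.3% fell and 7.34% rose. Of 30 DNA replication and G1/S genes 25 fell, 0 rose and all 30 differences were negative, with a median of -0.29. MCM10, which loads polymerase at origins, had 7.39, 7.32 and 7.24 with DMSO and 6.73, 6.70 and 6.80 with everolimus (-0.57 ± 0.07, limma adjusted p = 1.81e-05). The origin licensing factor CDC6 fell by 0.55 ± 0.06, the fork protein TIPIN by 0.56 ± 0.08 and the helicase subunit GINS2 by 0.47 ± 0.06. RRM2, which supplies deoxynucleotides, fell by 0.34 ± 0.05. Of 53 mitosis genes 38 fell, 0 rose and 15 were not called; the median was -0.24. The mitotic kinase PLK1 went from 10.40, 10.37 and 10.35 to 9.82, 9.93 and 9.85. CDC20, which activates the anaphase ubiquitin ligase, fell by 0.54 ± 0.04, the cyclins CCNB1 by 0.45 ± 0.06 and CCNA2 by 0.45 ± 0.04, their transcription factor FOXM1 by 0.43 ± 0.05 and CDCA8 of the chromosomal passenger complex by 0.42 ± 0.05. MKI67, the proliferation marker, fell by 0.24 ± 0.04, so single members moved by under 1.5-fold while nearly all moved the same way. In a bulk sample fewer dividing cells and less of these RNAs per cell cannot be told apart. In A431 the medians were 0.06 and 0.08, and the effects differed between the lines in limma for 25 of 30 and 35 of 53 genes.

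The promoters of these genes are shown for the elements that are known from cell cycle genes. E2F sites were searched as TTTGGCGC, TTTCCCGC, TTTCGCGC and TTTGGCGG, and the CHR element, to which the DREAM complex binds, as TTTGAA and TTCGAA. Both strands were read, from 250 bases before the annotated start to 50 after it, in RefSeq promoters of build GRCh38.p14, and TTCGAA reads the same on both strands. Of the 25 replication genes with a promoter there, 19 held an E2F match (76%), against 5.29% of the 8089 tested genes with a promoter and 3.43% of all 27305. Of the 45 mitosis genes 32 held a CHR match (71.1%), against 11.1% of the tested genes and 16.6% of all promoters. Among mitosis genes 27 of the 32 with a CHR match fell (median -0.23), and 7 of the 13 without (median -0.31). The group without a match thus had fewer falls but the lower median. Among replication genes 15 of 19 with an E2F match fell (median -0.32), and 5 of 6 without (median -0.29). A match is a description of letters in the window. The stretches below are those of 3 replication genes, at chr10:13161552-13161581, chr17:40287875-40287904 and chr16:85688967-85688996 (minus strand), and of 3 mitosis genes, at chr1:43358904-43358933, chr16:23678848-23678877 and chr1:37692481-37692510, with the match in capitals and the gene's strand read.
MCM10: ccggttggaatTTTGGCGGgttcagctgtg
CDC6: ggccattcggaTTTGGCGCgagcgcggctg
GINS2: ctctcgccgtgGCGGGAAAacggcggccgc
CDC20: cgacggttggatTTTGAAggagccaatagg
PLK1: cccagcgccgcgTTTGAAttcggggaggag
CDCA8: gtgactgtggagTTTGAAttgggtggcggt

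Many ribosomal protein transcripts rose, and many of the factors that build ribosomes fell. Of 51 cytosolic ribosomal protein genes tested 25 rose, 0 fell and 26 did not pass, against 7.34% rising and 11.3% falling over all genes. Of the 51 differences 47 were positive, and the list median was 0.22. RPS27 had 11.59, 11.67 and 11.60 with DMSO and 11.99, 12.03 and 12.15 with everolimus (0.44 ± 0.04, limma adjusted p = 1.74e-06). RPS19 went from 10.40, 10.30 and 10.29 to 10.74, 10.72 and 10.80. RPS6, the classic substrate of S6 kinase, rose by 0.41 ± 0.05 and RPL10 by 0.47 ± 0.04. The elongation factors EEF1G and EEF2 rose by 0.65 ± 0.05 and 0.34 ± 0.03, and the initiation factor EIF4B by 0.55 ± 0.04. Ribosomal protein genes have near-identical copies elsewhere in the genome, so probe sets can share signal and the sizes are uncertain: RPS18 had 0.55 by the probe set used and 0.35 by its other one, and EEF1G 0.65 and 0.38. In A431 22 of the same 51 ribosomal genes rose, with a median of 0.18. The effects differed between the lines in limma for 3 of the 51, against 10.5% of all genes tested.

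These mRNAs are known for a terminal oligopyrimidine (TOP) start, a C followed by pyrimidines, through which mTOR complex 1 controls their translation. A start of C and at least 4 further pyrimidines was found at the RefSeq start of 30 of the 47 ribosomal protein genes with a promoter in the table, against 5.14% of the tested genes and 4.04% of all promoters. Of the 30 with such a start 15 rose, with a median of 0.21, and of the 17 without it 8 rose, with a median of 0.22; the annotated start can differ from the one the cells used. The first 16 bases from the annotated start follow for 4 genes that rose, at chr1:153990762-153990777, chr19:41860255-41860270, chr9:19380221-19380236 (minus strand) and chr6:33272075-33272090 of GRCh38.p14, with the C and its pyrimidines in capitals.
RPS27: CCTTTCCggcggtgac
RPS19: CCCTTTCCCCTggctg
RPS6: CTCTTTTCCgtggcgc
RPS18: CTCTCTTCCacaggag

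Among 47 genes for ribosome biogenesis there were 25 falls and 2 rises, against 11.3% falling and 7.34% rising over all genes tested. The list median was -0.21. LYAR, a nucleolar growth regulator, had 6.98, 6.87 and 6.98 with DMSO and 6.29, 6.10 and 6.46 with everolimus (-0.66 ± 0.09, limma adjusted p = 7.71e-05). The rRNA methyltransferase NOP2 fell by 0.48 ± 0.06. NOP53, a nucleolar assembly factor of the large subunit, moved against its list, from 7.69, 7.71 and 7.70 to 8.65, 8.74 and 8.84, a 2.06-fold rise (limma adjusted p = 9.27e-11). It rose in A431 too, by 0.56, and the HSC-1 rise was larger by 0.48. In A431 this list had 2 rises and 1 fall, and 24 of the 47 effects differed between the lines in limma. Of 75 mitochondrial ribosomal protein genes 22 fell, 2 rose and the other 51 did not pass (median -0.14), and 13 fell without HSC-1 DMSO replicate 1. MRPL58 fell by 0.44 ± 0.05 and MRPL4 by 0.39 ± 0.07.

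**Figure D3:**
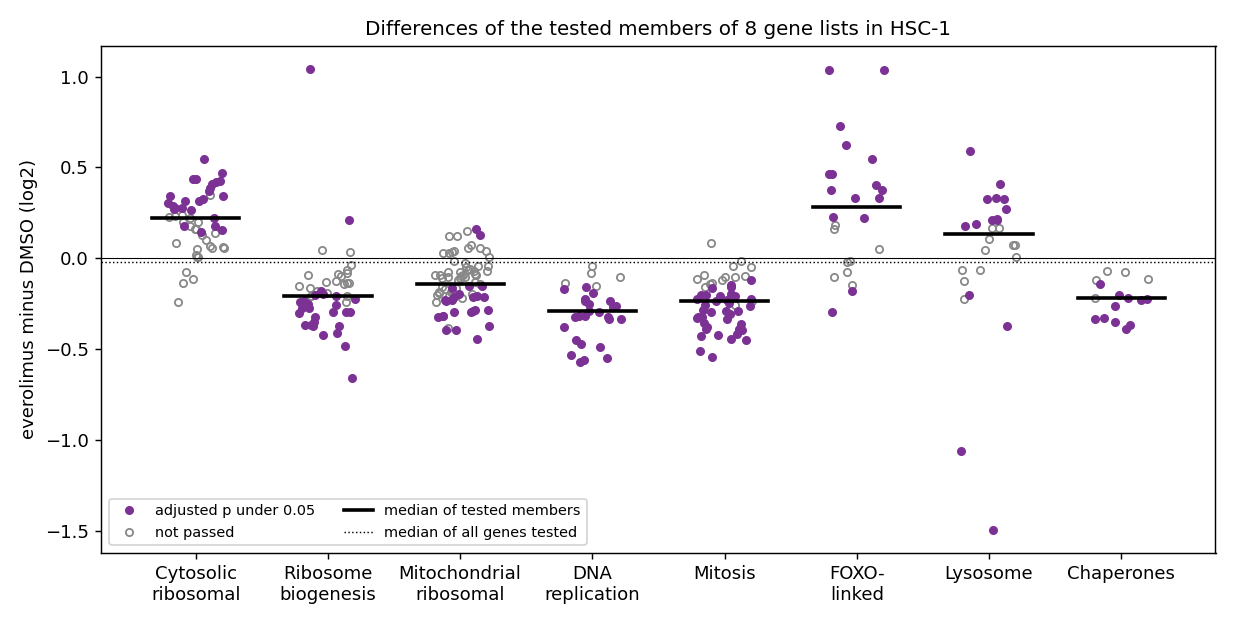
Log2 difference between everolimus and DMSO in HSC-1 for each tested member of 8 gene lists, filled where the limma adjusted p was under 0.05, with the list median as a bar and the median of all genes tested (-0.02) dotted. Cytosolic ribosomal proteins (median 0.22) and FOXO-linked genes (0.28) lie mostly above 0, and replication (-0.29), mitosis (-0.24), ribosome biogenesis (-0.21) and chaperone genes (-0.22) mostly below it; NOP53 is the lone high point among the biogenesis genes and LAPTM5 the lowest among the lysosomal ones.

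Genes that charge tRNAs and make amino acids fell more often than they rose, while over all genes tested 11.3% fell and 7.34% rose. Of 18 cytosolic aminoacyl-tRNA synthetases 11 fell and 1 rose, with 6 not called and a median of -0.18, and 7 fell without the intensity trend. HARS1 fell by 0.40 ± 0.09, VARS1 by 0.39 ± 0.07 and MARS1 by 0.33 ± 0.05, and the glutaminyl enzyme QARS1 was the one that rose (0.28 ± 0.05). Of 20 ATF4-linked genes of amino acid stress and serine synthesis 7 fell and 0 rose. PSAT1, which transaminates on the way to serine, had 10.05, 10.04 and 10.05 with DMSO and 9.37, 9.20 and 9.24 with everolimus (-0.77 ± 0.04, limma adjusted p = 1.08e-09). The asparagine synthetase ASNS fell by 0.43 ± 0.05. The effects of PSAT1 and ASNS differed between the lines by -0.83 and -0.48, with A431 differences of 0.05 for each gene.

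In the other metabolic lists falls also outnumbered rises, except among cholesterol genes, while over all genes tested 11.3% fell and 7.34% rose. Of 21 listed glycolysis genes 9 were tested, of which 5 fell and 0 rose. All 9 differences were negative, with a median of -0.28. TPI1 fell by 0.53 ± 0.13 and the lactate dehydrogenase LDHA by 0.37 ± 0.07. Fatty acid synthesis had 4 falls and 0 rises among 23 genes, with a median of -0.04. Its largest fall was that of ELOVL6, the elongase for long saturated chains (-0.66 ± 0.09). Of 26 genes of the pentose phosphate pathway and nucleotide synthesis 6 fell and 0 rose, among them the thymidylate kinase DTYMK (-0.50 ± 0.06), and 3 fell without HSC-1 DMSO replicate 1 or without HSC-1 everolimus replicate 2. Of 20 cholesterol genes 3 rose and 3 fell (1 and 2 in the fit of the 6 HSC-1 arrays alone). Of 75 listed respiratory chain genes 15 were tested, of which 2 fell and 0 rose. Their median was 0.04, and 0 to 2 fell over the alternatives.

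Lysosomal genes rose more often than they fell, while over all genes tested 7.34% rose and 11.3% fell. Of 26 tested 11 rose, 4 fell and 11 were not called; the median was 0.13, and 7 rose without HSC-1 everolimus replicate 1. TPP1, a lysosomal peptidase, had 7.61, 7.66 and 7.63 with DMSO and 8.29, 8.21 and 8.17 with everolimus (0.59 ± 0.06, limma adjusted p = 2.71e-06). The protective protein CTSA rose by 0.33 ± 0.04. Both genes had tight DMSO values and no overlap. Of 30 autophagy genes 6 rose and 0 fell: ATG14 of the PI3K initiation complex rose by 0.39 ± 0.08, the ATG8 homologue GABARAPL1 by 0.37 ± 0.09 and RB1CC1 (FIP200), a subunit of the ULK1 complex, by 0.31 ± 0.05. In A431 the lysosome list had 1 rise and 7 falls, with a median of -0.15, and 12 of the 26 effects differed between the lines in limma. The autophagy list had 0 rises and 0 falls in A431, where its median was 0.01.

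Chaperones and the folding machinery of the endoplasmic reticulum were lower, while over all genes tested 11.3% fell and 7.34% rose. Of 16 heat shock proteins and chaperones 11 fell, 0 rose and all 16 differences were negative, with a median of -0.22. HSPH1, a nucleotide exchange factor of HSP70, had 10.53, 10.47 and 10.43 with DMSO and 10.11, 10.14 and 10.01 with everolimus, and the mitochondrial chaperonin HSPD1 fell by 0.37 ± 0.06. Of 15 endoplasmic reticulum stress genes 8 fell and 1 rose, with a median of -0.21: SDF2L1 fell by 0.57 ± 0.11, the transcription factor XBP1 by 0.45 ± 0.07 and the chaperone HYOU1 by 0.42 ± 0.05. In limma the effects differed between the lines for 10 of the 16 chaperones and 2 of the 15 reticulum genes. Over all genes tested that share was 10.5%.

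Inflammatory mediators fell where they changed. Of 20 tested 6 fell, 0 rose and the other 14 did not pass (median -0.16). ICAM1, the leukocyte adhesion receptor, had 7.48, 7.54 and 7.68 with DMSO and 6.59, 6.61 and 6.60 with everolimus (-0.97 ± 0.10, limma adjusted p = 1.68e-06). The interleukin 1 receptor antagonist IL1RN fell by 0.98 ± 0.08 and ended below the array median on all 3 everolimus arrays, so the size of its difference depends on the background. The siderophore-binding lipocalin LCN2 fell by 0.76 ± 0.07. Of 31 interferon-stimulated genes 5 fell and 1 rose, against 11.3% falling and 7.34% rising over all genes tested. Without HSC-1 DMSO replicate 2, HSC-1 everolimus replicate 2 or HSC-1 everolimus replicate 3, 3 of them fell. Their falls were thus near the share over all genes.

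Differentiation genes split. SPRR1A, which transglutaminases link into the cornified envelope, had 8.34, 8.28 and 8.23 with DMSO and 7.24, 6.93 and 7.14 with everolimus (-1.18 ± 0.11, limma adjusted p = 5.75e-07), and SPRR1B fell by 0.82 ± 0.17. The epidermal protease KLK6 fell by 0.69 ± 0.06, and KLK10 fell by 0.68 ± 0.04. In all, 9 of 41 tested genes of the cornified envelope and terminal differentiation fell and 3 rose, with a median of -0.04. Over all genes tested 11.3% fell and 7.34% rose. In A431 SPRR1A had a difference of -1.37, and the lines were not called different for it (limma adjusted p = 0.531), whereas KLK6 had 0.20 there and differed between the lines by -0.89 (limma adjusted p = 1.68e-06). Of the basal keratins KRT5 did not pass (0.09 ± 0.05, limma adjusted p = 0.208), and its partner KRT14 went from 10.08, 10.12 and 10.10 to 9.92, 9.90 and 9.98, a fall (limma adjusted p = 0.00429). With no intensity trend in the variance KRT14 was not called (limma adjusted p = 0.0535; the lowest over the alternatives was 0.000814). Of 14 tested genes of basal and stress keratins and squamous identity 3 fell and 0 rose.

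Matrix genes moved in both directions. The interstitial collagenase MMP1 had 6.26, 6.08 and 6.05 with DMSO and 4.66, 4.68 and 5.07 with everolimus (-1.32 ± 0.15, limma adjusted p = 7.04e-06). With everolimus MMP1 lay little above the array medians of 4.35 to 4.39, so the size of its difference depends on the background. The collagenase MMP13 fell 1.83-fold. The sheddase ADAM12 fell by 0.95 ± 0.15 and the lysyl oxidase LOXL2 by 0.66 ± 0.10. Fibronectin, FN1, rose from 8.11, 8.03 and 8.13 to 8.93, 8.94 and 8.90, as MXRA5 did. Of 21 matrix proteases and matricellular proteins 7 fell, 3 rose and 11 did not pass, against 11.3% falling and 7.34% rising over all genes. The rises numbered 5 without A431 DMSO replicate 3. The effects of 11 of the 21 differed between the lines in limma. Of 25 Notch, WNT and YAP target genes 7 rose and 1 fell, among the rises NOTCH1 (0.35 ± 0.06) and the WNT antagonist family member DKK3 (0.41 ± 0.10), and 4 rose without HSC-1 everolimus replicate 1. The ligand BMP2 rose by 0.55 ± 0.11. Among 22 chromatin regulators 5 fell and 2 rose, beside shares of 11.3% and 7.34% over all genes. The de novo DNA methyltransferase DNMT3B fell by 0.55 ± 0.12, and the class IIa deacetylase HDAC5 went from 6.33, 6.08 and 6.17 to 6.96, 6.74 and 6.99.

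Long noncoding and miRNA genes fell less often than genes in general, and rose about as often. Of 631 long noncoding RNA genes tested 52 rose and 18 fell, and of 442 miRNA genes 29 rose and 6 fell. Of 9234 protein-coding genes 648 rose and 1162 fell. Over all genes tested 7.34% rose and 11.3% fell. Whole-transcript labelling starts from long RNA, so a probe set on a miRNA gene reads transcripts that contain the hairpin, and the mature miRNA was not measured. MIR23B (probe set 17087107) had 7.66, 7.67 and 7.71 with DMSO and 8.80, 8.88 and 8.62 with everolimus, a difference of 1.09 ± 0.07 (limma adjusted p = 3.79e-09). MIR27B, whose hairpin lies 141 bases from that of MIR23B on chromosome 9, went from 7.34, 7.28 and 7.35 to 8.31, 8.14 and 8.07. MIR222 rose by 0.94 ± 0.10 and MIR221, 749 bases away on chromosome X, by 0.56 ± 0.09. MIR181A2 rose by 1.00 ± 0.17 and its neighbour MIR181B2 by 0.82 ± 0.12, and MIR27A on chromosome 19 by 0.53 ± 0.11. MIR221, MIR181B2 and MIR27A are named because they neighbour, or share a seed with, those of the largest rises, and were chosen after their values were seen. MIR3671 had the largest difference of any rising gene (1.47 ± 0.25), but all 3 DMSO arrays lay below the array median (3.52, 3.20 and 4.10), so its size depends on the background. MIR548I2 rose by 1.01 ± 0.15, a call that did not hold when its probe sets were averaged (limma adjusted p = 0.101; the lowest over the alternatives was 1.24e-05).

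Of the 35 changed miRNA genes 30 had a mature sequence in the RefSeq table (GRCh38.p14). Some of the rising genes above share a seed, which is partly built into the choice of MIR221, MIR181B2 and MIR27A: UCACAGU in both miR-27 forms, GCUACAU in miR-221 and miR-222, and ACAUUCA in miR-181a and miR-181b. The seed, bases 2 to 8, is in capitals. On the plus strand of chromosome 9 miR-23b-3p lies at chr9:95085265-95085287, miR-27b-3p at chr9:95085505-95085525, miR-181a-5p at chr9:124692480-124692502 and miR-181b-5p at chr9:124693725-124693747, and on the minus strand of chromosome X miR-222-3p lies at chrX:45747036-45747056 and miR-221-3p at chrX:45746180-45746202.
hsa-miR-23b-3p: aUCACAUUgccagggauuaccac
hsa-miR-27b-3p: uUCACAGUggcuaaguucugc
hsa-miR-27a-3p: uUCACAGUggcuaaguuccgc
hsa-miR-222-3p: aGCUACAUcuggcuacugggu
hsa-miR-221-3p: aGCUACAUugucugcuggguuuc
hsa-miR-181a-5p: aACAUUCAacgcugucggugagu
hsa-miR-181b-5p: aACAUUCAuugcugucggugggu
Probe sets on miRNA genes known from keratinocytes rose by less: MIR205 by 0.32 ± 0.06 and MIR21 by 0.31 ± 0.08, both chosen after their values were seen.

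SNAR genes, which encode small noncoding RNAs made by RNA polymerase III and bound by NF90, fell. All 8 tested genes of the small nuclear RNA class were SNAR genes, of which 5 fell and 0 rose, with a median of -0.78. The shares over all genes tested were 11.3% falling and 7.34% rising. SNAR-H had 8.24, 8.50 and 8.26 with DMSO and 7.08, 6.99 and 7.24 with everolimus (-1.23 ± 0.08, limma adjusted p = 7.48e-09). SNAR-B1 went from 11.15, 11.11 and 11.10 to 9.75, 9.74 and 10.14. SNAR-D fell by 1.18 ± 0.14, SNAR-C1 by 1.01 ± 0.08 and SNAR-G2 by 0.55 ± 0.11, the last 2 chosen after their values were seen. These genes are near-identical copies, so their probe sets can read each other's RNA and the 5 falls are not independent. Among other polymerase III transcripts the vault RNA VTRNA1-3 fell by 0.45 ± 0.09 and RPPH1, the RNA of RNase P, rose by 0.43 ± 0.07.

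**Figure D4:**
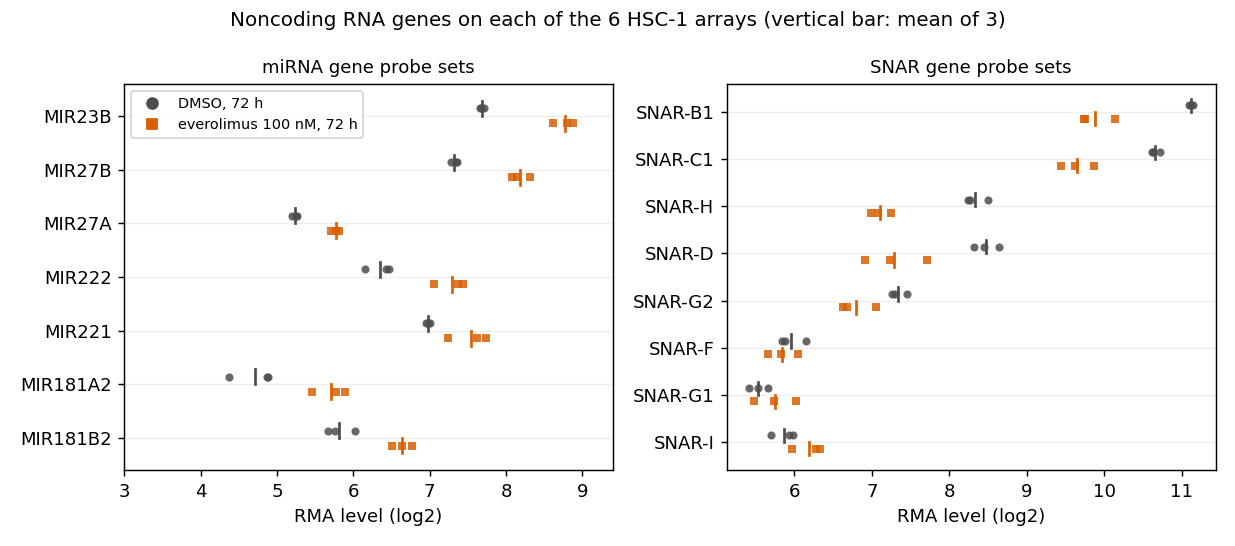
Log2 RMA level of 7 miRNA genes and 8 SNAR genes on each of the 6 HSC-1 arrays, with DMSO arrays as grey circles, everolimus arrays as orange squares and group means as vertical bars. The everolimus arrays of MIR23B lie at 8.62 to 8.88 against 7.66 to 7.71 with DMSO, and those of SNAR-B1 at 9.74 to 10.14 against 11.10 to 11.15.

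The same contrast in A431 was called for 714 genes. Both lines shared 304 of them, 15.4% of the HSC-1 calls and 42.6% of the A431 calls: 83 rose in both, 136 fell in both and 85 had opposite signs. The effects of the lines differed for 1118 genes (10.5%), 514 higher and 604 lower in HSC-1, and 782 of these were called in HSC-1. VGLL1, a partner of the TEAD factors, rose by 0.56 ± 0.07 in HSC-1, from 6.42, 6.39 and 6.69 to 7.12, 7.08 and 6.96, and had -0.74 in A431 (difference 1.30, limma adjusted p = 3.16e-07). PIGR, the polymeric immunoglobulin receptor, had 0.58 in HSC-1 and -1.18 in A431, but lay below the array median on all 6 HSC-1 arrays. GPR15LG and AOC1, with wide differences between the lines of 1.31 and 1.23, did not pass in HSC-1 (0.10 ± 0.11 and 0.22 ± 0.15).

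**Figure D5:**
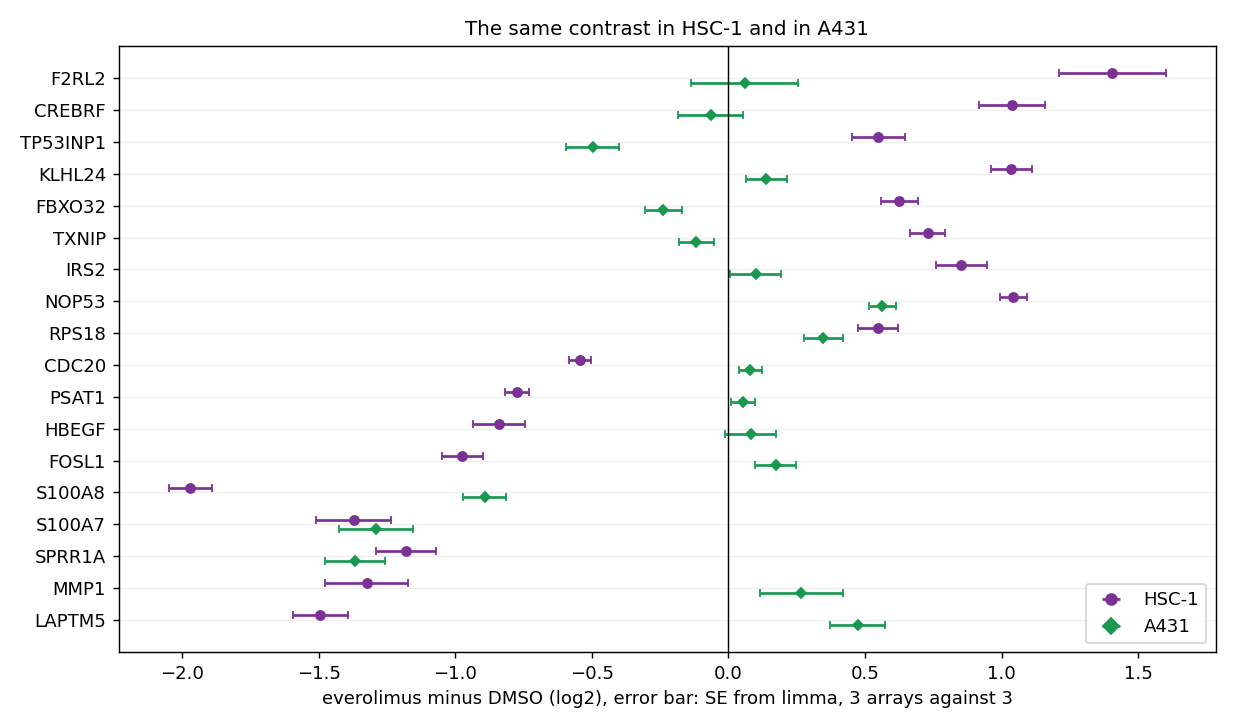
Log2 difference between everolimus and DMSO for 18 genes in HSC-1 (purple circles) and in A431 (green diamonds), with limma SE as error bars and 3 arrays against 3 in each line. S100A7 and SPRR1A lie close together in both lines, while TP53INP1 (0.55 and -0.50) and LAPTM5 (-1.49 and 0.47) lie on opposite sides of 0.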

How the data were processed

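RNA was extracted with TRI reagent and labelled with GeneChip whole-transcript kits, per the labels' protocols. The authors deposited log2 expression values per probe set, which according to the processing notes come from Affymetrix Expression Console's RMA; neither software versions nor a genome build is stated there. Since RMA quantile-normalizes, a shift of the total RNA content of cells cannot be seen, and the table carries no detection flags. The number of arrays limits the precision.

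Of 53617 probe sets 16098 had 1 gene symbol, 37519 were unnamed here, and 0 had several. Each of the 14884 genes was represented by its probe set of highest average level across the 12 arrays. Genes entered the test if 3 or more arrays exceeded their own median (10613 genes; 4271 left out). Of the 116 changed genes with several probe sets, 27 had probe sets of opposite sign. Group means of the 4 groups were fitted with limma 3.58.1 in R 4.3.3 (intensity trend, 8 residual degrees of freedom), with Benjamini-Hochberg adjustment and a threshold of 0.05. An exact permutation test of 3 arrays against 3 cannot go below p = 0.10. On simulated data with 200 of 10613 genes changed, 48% were recovered at a log2 size of 0.3, 72% at 0.5, 98% at 1 and 100% at 2, with 2.45% of calls false. Far more genes, 1977, were called in the data, and the adjusted p depends on how many genes change. These shares therefore need not hold for the calls reported here.

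The genes and lists were chosen with earlier results of these data known. The naming rule took the 15 largest rises and falls without overlapping groups, up to 6 members of each list, a set of single genes (RPS6KB1, ERBB2 and TP63 of which were not tested), and the 10 widest differences between the lines; names added outside it are marked in the text. Of 132 genes so described 125 were called, and preference was given to those called under every alternative. Lists are described by counts and medians with no test of the list. The lists of amino acid transporters and proteasome subunits had 0 named probe sets and are not analysed here. Replicate numbers did not pair the arrays: deviations of same-numbered arrays correlated at -0.05, -0.01 and -0.15. Alternatives were a replicate block, other level filters, other variance priors, array weights, other scalings, the 6 arrays alone, the mean of probe sets and leaving out each array. Sequences are RefSeq's (GRCh38.p14).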

Additional observations from a re-analysis of the deposited data

Results flagged for a closer look

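Of the genes described above, 99 had an everolimus effect in HSC-1 that differed from the one in A431, by limma's test of the difference between the lines' effects at an adjusted p of 0.05. The values below are these differences on the log2 scale, and a positive value means a change that was more upward, or less downward, in HSC-1 than in A431. DDIT4 and FGFBP1, for example, fell in both lines, and by less in HSC-1. The difference was positive for genes of starvation and quiescence, namely CREBRF (1.10), TP53INP1 (1.05), KLHL24 (0.90), FBXO32 (0.86) and TXNIP (0.85). It was positive for the surface and matrix genes F2RL2 (1.34), MXRA5 (1.08), FN1 (0.81) and BMP2 (0.74). Further positive differences were those of TCP11L2 (0.96), CCDC146 (0.64), HDAC5 (0.59), VGLL1 (1.30) and RPPH1 (0.54). Receptors and adaptors with a positive difference were IRS2 (0.75), ERBB3 (0.53), FGFR2 (0.50) and IGF1R (0.25). Ligands and their carriers with a positive difference were FGFBP1 (0.46) and PDGFA (0.33). Among mTOR pathway genes the differences were FNIP1 (0.39), PDCD4 (0.38), DDIT4 (0.19) and EIF4EBP1 (-0.48). Among translation genes they were positive for NOP53 (0.48), EEF1G (0.31), RPL10 (0.25), EIF4B (0.22), RPS27 (0.20) and EEF2 (0.16). In lysosome and autophagy genes they were positive for TPP1 (0.61), CTSA (0.45) and ATG14 (0.35). In miRNA genes they were positive for MIR3671 (1.72), MIR548I2 (1.22), MIR23B (1.01), MIR181B2 (0.91), MIR222 (0.90), MIR27B (0.75), MIR205 (0.53) and MIR221 (0.48). Negative differences among SNAR genes were those of SNAR-D (-1.16), SNAR-B1 (-1.12), SNAR-C1 (-0.87) and SNAR-H (-0.86). Secreted, surface and lysosomal proteins and the enzyme GNE had negative differences, namely LAPTM5 (-1.97), STC1 (-1.29), S100A8 (-1.08), STOM (-0.96), S100A9 (-0.91), KLK6 (-0.89), KLK9 (-0.79), GNE (-0.77), CLCA2 (-0.55) and KLK10 (-0.36). Matrix proteases and the lysyl oxidase had differences of -1.59 for MMP1, -1.10 for ADAM12, -0.85 for MMP13 and -0.52 for LOXL2. Growth factor signalling and ERK output genes had differences of -1.15 for FOSL1, -0.92 for HBEGF, -0.89 for IER3, -0.59 for NRG1, -0.42 for EGR1 and -0.26 for EPHA2. The G1 cyclin differed the other way, with 0.26 for CCND1. Inflammatory mediators had differences of -0.91 for ICAM1, -0.55 for IL1RN and -0.55 for LCN2. Replication and nucleotide synthesis genes and a DNA methyltransferase had differences of -0.81 for GINS2, -0.70 for MCM10, -0.70 for DNMT3B, -0.68 for DTYMK, -0.55 for CDC6, -0.48 for TIPIN and -0.48 for RRM2. Mitosis genes had differences of -0.62 for CDC20, -0.50 for PLK1, -0.49 for CCNA2, -0.49 for FOXM1, -0.46 for CCNB1, -0.42 for CDCA8 and -0.40 for MKI67. Ribosome biogenesis and mitochondrial ribosome genes had differences of -0.67 for LYAR, -0.40 for NOP2, -0.39 for MRPL4 and -0.38 for MRPL58. Amino acid, tRNA charging and lipid genes had differences of -0.83 for PSAT1, -0.56 for ELOVL6, -0.50 for MARS1, -0.48 for ASNS and -0.39 for VARS1. Chaperone and reticulum genes had differences of -0.50 for HSPD1, -0.46 for HSPH1, -0.34 for XBP1 and -0.22 for HYOU1. Genes of mucosal surfaces had differences of 1.76 for PIGR, 1.31 for GPR15LG and 1.23 for AOC1. Groups of 3 arrays are too small to be examined for single outlying arrays.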

How the results depend on the processing

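Of the 235 called genes that the naming rule took or the text added, 179 stayed past the threshold under all of up to 23 alternatives, 56 lost the call under at least 1, and 0 changed sign. The 125 called genes described above were chosen in part for keeping their call, so that 121 of them kept it is no sign of stability; the exceptions were MIR548I2, IRS1, ERBB3 and KRT14. With a 1.5-fold threshold added the HSC-1 comparison had 139 genes (67 rose, 72 fell) and the difference between the lines 228 (130 higher, 98 lower in HSC-1). At an adjusted p of 0.01 the counts were 1115 (684 of them falling) and 541 (244 higher, 297 lower). Without the intensity trend the everolimus effect was called higher in HSC-1 than in A431 for 331 genes. The replicate block gave 1845 HSC-1 genes (726 rose, 1119 fell) and 1005 for the difference between the lines, and lost none of these 125 calls. Leaving out 1 array at a time gave 1405 (without HSC-1 DMSO replicate 1) to 2032 HSC-1 genes, with 538 to 880 rising and 846 to 1218 falling, and 879 to 1161 for the difference between the lines, with 389 to 615 higher and 457 to 641 lower in HSC-1. The scalings moved the median of all tested genes by at most 0.01. The fit of the HSC-1 arrays alone has no A431 arrays and so gives no difference between the lines. The limits are 3 arrays a group, with no statement of separate cultures, 1 dose and 1 time. Levels near the array median carry background, so the differences of dim genes depend on it. Only genes with a named probe set were covered, and RNA levels do not show phosphorylation, translation or mature miRNA.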
